A study of Mus musculus with 12 samples.

Results

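The cytoplasmic ribosomal protein genes encode the proteins of the ribosome that translates nuclear messages, here as counted in whole mouse lungs. They were taken as the protein-coding genes of the count table whose symbols start with *Rpl* or *Rps* and go on with a number and at most a short suffix. This rule gave 83 genes of the 55487 in the table, with 49 of the large subunit, 31 of the small subunit and 3 of the P stalk. The rule leaves out *Rpsa*, *Fau* and *Rack1*, which also encode ribosomal proteins and are described beside the members. The lungs came from 12 *miR-30a* -/- mice on the C57BL/6J background, in which CRISPR/Cas9 had removed the whole *miR-30a* gene. The controls carried the same deletion, and wild-type lungs were not analysed here. Pups breathed 95% oxygen (hyperoxia) or 21% oxygen (room air) from postnatal day (PND) 1 to PND 5 and then room air until PND 21, when whole lungs were taken. There were 3 lungs in each of 4 groups, which were room air females, hyperoxia-exposed females, room air males and hyperoxia-exposed males. Litters had been pooled and redistributed by sex before exposure, so pups of a litter could be in any group.

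Each ribosome holds 1 copy of most of these proteins, so the genes are expressed together and at high levels in every cell. Large subunit proteins surround the site where peptide bonds form, small subunit proteins the site where the message is read, and the P stalk proteins draw the elongation factors to the ribosome. Many of the messages start with a tract of pyrimidines at the first base, the 5′ terminal oligopyrimidine (TOP) tract, through which mTOR signalling sets how strongly they are translated. The mammalian genome also holds many processed pseudogenes of these genes, and some members have a paralog that is expressed in muscle, in testis or at a low level.

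The genes that passed the expression filter of edgeR numbered 45828, and all 83 members were among them. Total counts per lung ran from 8763033 to 16741694. *Mir30a* had 0 counts in all 12 lungs, a level at which these libraries do not check the deletion. *Xist* counts (8834 to 27296 in females, 148 to 210 in males) and *Ddx3y* counts (0 in females, 270 to 715 in males) matched the labelled sex. Marker genes of lung were present, with a summed level of 7868 to 21531 CPM (counts scaled to a common normalised library size) over 10 genes. The receptor share, the share of counts on 1454 olfactory and vomeronasal receptor genes that lung cells should not express, ran from 0.401% to 0.924%. Another 7.30% to 29.2% of the counts lay on 5 predicted genes of satellite-like repeat sequence. Because the lungs were bulk tissue, fewer cells of a type and less RNA per cell cannot be told apart.

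A pair of sequence features bears on these genes, and the first is the TOP tract. RefSeq gave a transcription start on GRCm38.p6 for 63 of the 83 members, with 75 starts in all. A C followed by at least 4 pyrimidines lay close to the start in 31 of the 75 starts, 41.3% (Wilson interval 30.9% to 52.6%), on the strand of the gene. All of these bases had to lie within the stretch from 5 bases before the start through the first 10 bases of the transcript. The same held for 18.3% of 32851 starts of all genes and for 22.7% of 75 starts of mitochondrial ribosomal protein genes. With the C required exactly at the annotated start, 13 member starts (17.3%) had a tract against 2.51% of all starts and 0 of the 75 mitochondrial ones. The windows below run from 10 bases before the start over 20 bases of transcript, with the tract in capitals. They show 4 members described further on that have a tract at the start, and the X-linked *Rpl36a*, in which none lay wholly within that stretch. In *Rpl36a* a C followed by 4 pyrimidines begins at the last base of the stretch and runs past it, so it was not counted.
Rplp2, chr7:141447641-141447670, + strand: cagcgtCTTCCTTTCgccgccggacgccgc
Rps6, chr4:86857348-86857377, - strand: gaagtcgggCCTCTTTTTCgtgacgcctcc
Rps27, chr3:90213629-90213658, - strand: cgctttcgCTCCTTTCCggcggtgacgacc
Rpl35a, chr16:33056472-33056501, + strand: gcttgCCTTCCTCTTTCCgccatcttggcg
Rpl36a, chrX:134585644-134585673, + strand: cccaggcaccgcctataaacttccgttgcg

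The second feature is sequence shared with other genes, which decides whether a short read can be assigned to a member at all. A median of 51.7% of the 50-base words of a member also occurred in the transcripts of another gene, and 45 of the 83 members shared over 50%. The same median was 2.84% for 78 mitochondrial ribosomal protein genes and 0.0410% for 63 ribosome biogenesis factors. A member shared such words with a median of 8 pseudogenes, and *Rpl7a* shared them with 120. How reads that map to several places were treated is not given in the sources used here. In addition, exons of 38 members overlapped exons of another annotated gene on either strand, 16 of them over more than 10% of their exon bases.

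Some members are paralogs of each other. The coding sequences of *Rpl36a* and *Rpl36al* were 87.9% identical, those of *Rpl39* and *Rpl39l* 85.3% and those of *Rps27* and *Rps27l* 76.1%. The pair *Rpl10* and *Rpl10l* stood at 84.8%, *Rpl3* and *Rpl3l* at 73.2%, *Rpl22* and *Rpl22l1* at 66.9% and *Rpl7* and *Rpl7l1* at 50.3%. The first 60 coding bases of 2 of these pairs are shown because the partners differed in level or because 1 partner passed the test below. Capitals mark the bases that differ within a pair, 11 in the first and 18 in the second.
Rpl36a: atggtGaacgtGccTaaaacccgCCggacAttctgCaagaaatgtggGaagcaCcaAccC
Rpl36al: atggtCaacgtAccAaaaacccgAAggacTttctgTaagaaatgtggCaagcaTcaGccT
Rps27: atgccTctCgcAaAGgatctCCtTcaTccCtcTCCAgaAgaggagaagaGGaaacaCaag
Rps27l: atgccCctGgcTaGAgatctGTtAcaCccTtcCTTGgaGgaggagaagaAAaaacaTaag

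The 83 members together took only 0.175% to 0.285% of the counts of a lung. With the counts of the 305 pseudogenes named after 61 of the members added, the share was 0.266% to 0.407%. Single members had between 8 and 3284 counts in a lung, with a median over members of 175 counts. The 10 members with the most counts held 38.8% of all member counts. A background level was estimated in each lung as the median count per kilobase of exon on the receptor genes. It amounted to 4.11% to 15.9% of the member counts of a lung, but to 25% or more of the counts of 26 members and to under 10% for 29.

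Levels per kilobase of exon spanned from 1.497 to 120 CPM per kb (means over 12 lungs). Exon length was the union of all annotated exons of a gene, which can exceed the length of 1 coding transcript. These 2 lengths were 499 and 499 bases for *Rplp1*, 1168 and 582 for *Rpl41*, 1043 and 345 for *Rps27*, and 816 and 499 for *Rps27l*. The order of levels and the background percentages depend on this choice, and neither was computed on transcript length. The highest were *Rplp1* of the P stalk at 120 ± 21.7 CPM per kb (SD, n = 12), the small subunit gene *Rps15* at 86.9 ± 19.1 and *Rpl41*, the shortest ribosomal protein, at 71.1 ± 12.2. *Rpl4* at 69.4 ± 16.2 and *Rplp0* at 69.3 ± 15.0 followed, and *Rpl41*, *Rpl4* and *Rplp0* differed by less than their SD. The lowest were *Rpl23a* at 1.497 ± 0.353, *Rpl36al* at 1.93 ± 0.355 and *Rpl10l*, a paralog known from testis, at 2.09 ± 0.607 CPM per kb. Background amounted to 77.6%, 62.0% and 57.0% of the counts of these last 3 genes, so their levels lay near it. Exons of *Rpl23a* also overlapped the antisense gene *Tlcd1* over 59.7% of their bases. Across members, level per kilobase and the share of shared words had a Spearman correlation of -0.245, a description over 83 genes that share the same 12 libraries. *Rps27*, with 98.6% of its words shared, stood at 3.12 ± 0.696 CPM per kb, below its paralog *Rps27l* at 14.2 ± 2.63 with 22.4%. *Rpl36a* (85.5% shared) stood at 2.83 ± 0.725 CPM per kb, *Rps6*, a target of S6 kinase, at 4.23 ± 0.839 with 84.6% shared, and *Rpl11* of the 5S particle at 5.24 ± 0.421 with 62.2%.

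**Figure D1:**
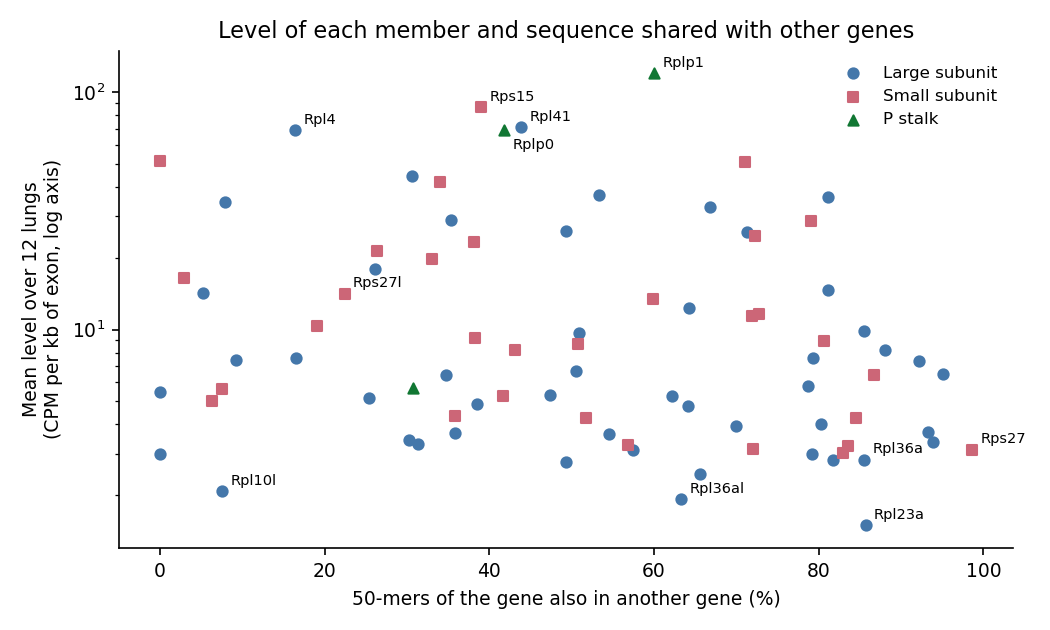
Mean level over 12 lungs of each of the 83 members (vertical log axis, CPM per kb of exon) against the percentage of its 50-base words that also occur in another gene's transcripts, with large subunit, small subunit and P stalk members as circles, squares and triangles. Levels run from 1.497 for *Rpl23a* to 120 for *Rplp1*, and members with little shared sequence stand both high and low.

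The members moved together from lung to lung. In room air female 5, 69 of the 83 members lay above their own mean over the 12 lungs on the log2 scale, with a median deviation of 0.34. In hyperoxia male 2 only 17 did, with a median deviation of -0.28. The other large deviations were 0.17 in hyperoxia male 1 and 0.16 in room air female 2. Room air female 5 held the highest level of 54 members and hyperoxia male 2 the lowest level of 42, so both ends of the range came from opposite exposures and sexes. The large and small subunits deviated in the same direction in each lung (0.34 and 0.38 in room air female 5, -0.25 and -0.30 in hyperoxia male 2). The mitochondrial ribosomal protein genes had medians of 0.18 and -0.12 in these 2 lungs, and all genes tested had medians of -0.13 and 0.07. Summed lung markers were also highest in room air female 5 (21531 CPM) and lowest in hyperoxia male 2 (7868 CPM). Macrophage markers had the same lungs at their ends (2201 and 911 CPM), while thymocyte markers went the other way (90.5 and 137 CPM). Whether the movement was particular to the members was not tested.

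The share of counts on the members was 0.233%, 0.285% and 0.203% in room air females 2, 5 and 6, and 0.220%, 0.200% and 0.192% in hyperoxia-exposed females 2, 4 and 5. It was 0.195%, 0.221% and 0.214% in room air males 1, 4 and 5, and 0.252%, 0.175% and 0.206% in hyperoxia-exposed males 1, 2 and 3. The groups overlapped in both sexes. Over both sexes the 6 exposed lungs had a mean share of 0.208% (SD 0.0263) and the 6 room air lungs one of 0.225% (SD 0.0321). The difference of -0.0176 percentage points ran from -0.0265 without hyperoxia male 1 to -0.00568 without room air female 5. The lung with the highest member share, room air female 5, had the lowest receptor share (0.401%) and the lowest satellite-like share (7.30%), and hyperoxia male 2 had the highest of both (0.924% and 29.2%). With the satellite-like genes left out of the total, the member share ran from 0.248% to 0.308%, with the same lungs at its ends and means of 0.264% (SD 0.0114) in the exposed and 0.271% (SD 0.0188) in the room air lungs. What part these background counts have in the lung-to-lung differences was not tested beyond the alternatives given with each comparison.

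**Figure D2:**
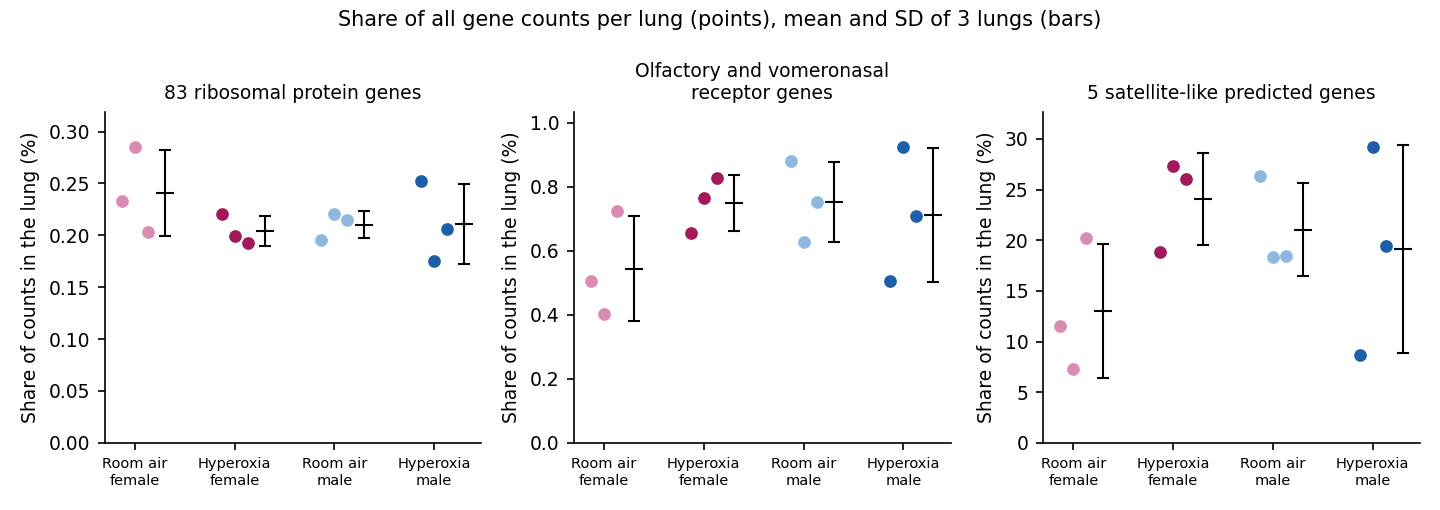
Share of all counts of a lung (vertical axes, %) on the 83 ribosomal protein genes, on olfactory and vomeronasal receptor genes and on 5 satellite-like predicted genes, with 1 point per lung and the mean ± SD of 3 lungs beside each group. The member share peaks at 0.285% in a room air female whose other 2 shares are the lowest, and is lowest, 0.175%, in a hyperoxia-exposed male whose other shares are the highest.

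The first comparison asked whether hyperoxia in the first days of life left a change in these genes on PND 21, over all 12 lungs with the sexes weighted equally. No member passed the test of edgeR (quasi-likelihood, adjusted p under 0.05 and fold change over 1.5), with 0 of 83 higher and 0 of 83 lower and a smallest adjusted p of 0.927. The background over all 45828 genes tested was 0.00218% higher and 0.0393% lower. At an unadjusted p under 0.05, 2 members were higher (*Rpl17*, *Rpl39l*) and 3 lower (*Rps2*, *Rpl7a*, *Rps20*), against 2.67% and 2.52% of all genes. DESeq2 called 0 members and had 0 higher and 2 lower without adjustment (1.41% and 2.68% of all genes). The median log2 fold change of the members was -0.12, with 17 of 83 above 0, and that of all genes 0.03. The 2 exposure groups overlapped for every member, as they did for nearly all genes (0.0938% of all genes not overlapping with hyperoxia higher, 0.12% with hyperoxia lower).

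*Rps2*, a small subunit protein at the entry of the message channel (chromosome 17, 24718116 to 24721929, mm10), had the largest negative change of the members with a mean level of at least 10 CPM. Its level had a minimum, median and maximum of 34.6, 46.0 and 60.4 CPM in the 6 hyperoxia-exposed lungs and of 47.5, 54.9 and 83.4 in the 6 room air lungs. The ranges overlapped, and the log2 fold change was -0.33 (SE 0.14, adjusted p = 0.927, edgeR). *Rpl7a*, a large subunit protein, stood at 23.7 ± 2.998 CPM after hyperoxia and 28.7 ± 5.17 in room air (SD, n = 6 each), a log2 fold change of -0.27. *Rps27l*, a paralog known as a p53 target, changed by -0.27, *Rps20* by -0.24 and *Rpl41* by -0.23. At the other end of the members with at least 10 CPM, *Rps19*, the gene most often mutated in Diamond-Blackfan anaemia, stood at 39.5 ± 5.10 against 37.5 ± 6.21 CPM (log2 fold change 0.08), followed by *Rpl34* (0.03), *Rpl35a* (0.02), *Rpl23* (-0.01) and *Rpl11* (-0.02). None of these differences passed the test.

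Over both sexes the log2 fold change was negative in 29 of 29 members with background under 10% of counts, with a median of -0.15. It was negative in 37 of the 54 others, with a median of -0.07. Of the 29, all were negative in females (median -0.33), while 13 were negative and 16 positive in males (median 0.0055). The change over both sexes was also negative in 10 of 10 lung markers and 21 of 22 translation initiation factors. It was negative in 19 of 20 translation factors with TOP messages, but in only 2 of 8 thymocyte markers. All these genes share the same libraries, and whether the common sign was particular to the members was not tested. When the receptor share entered the model as a covariate, the median over all members became -0.01, with 38 of 83 above 0. Without room air female 5 it was -0.04 and without hyperoxia male 2 it was -0.06, against -0.17 without hyperoxia male 1.

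**Figure D3:**
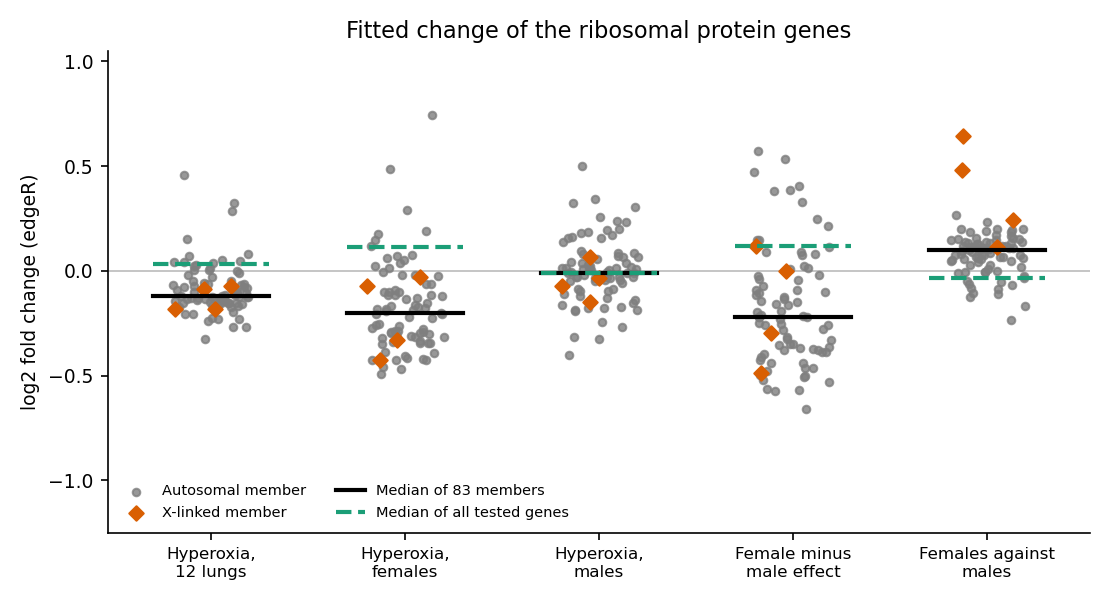
Log2 fold changes (vertical axis, edgeR) of the 83 members in 5 comparisons, with 1 point per gene, diamonds for the 4 X-linked members, a solid line at the members' median and a dashed line at the median of all genes tested. The members' medians are -0.12, -0.20, -0.01, -0.22 and 0.10 from left to right, and 2 X-linked members stand above the others in females against males.

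In the females, no member passed the test either (0 higher, 0 lower, smallest adjusted p 0.354, edgeR), where all genes had 0.0% higher and 0.00218% lower. At an unadjusted p under 0.05, 2 members were higher and 9 lower, against 7.32% and 5.28% of all genes, and DESeq2 had 1 higher and 12 lower with 0 called (3.7% and 8.52% of all genes without adjustment). The 9 lower members were *Rpl7a*, *Rpl10*, *Rps20*, *Rpl22*, *Rpl18*, *Rplp2*, *Rps15*, *Rps2* and *Rpl7l1*. The median log2 fold change was -0.20, with 14 of 83 above 0, against 0.11 for all genes. Several of the marker lists also shifted in the exposed females, with 0 genes called in each list (edgeR). T cell, macrophage, neutrophil and proliferation markers had median log2 fold changes of 0.05, -0.10, -0.19 and 0.07. Erythroid markers were below 0 in 8 of 8 genes (median log2 fold change -1.37), with sums of 1325 to 3069 CPM in exposed and 5689 to 8207 in room air females. Lung markers summed to 10035 to 10913 CPM in exposed and 11130 to 21531 in room air females, with 10 of 10 genes below 0 (median log2 fold change -0.54). B cell markers were below 0 in 7 of 7 genes (median -0.42), and cardiac muscle markers in 7 of 8 (median -0.42), with sums of 212 to 236 against 323 to 359 CPM. Thymocyte markers were above 0 in 7 of 8 genes (median 0.36), with sums of 109.4 to 134 against 90.5 to 109.3 CPM, and skeletal muscle markers in 9 of 12 (median 0.25). When the receptor share entered the model the medians were 0.0029 for lung, -0.18 for B cell and -0.52 for cardiac markers, and without room air female 5 they were -0.35, -0.30 and -0.47. The part of these cell types in the member values was not tested. The 3 hyperoxia-exposed and the 3 room air lungs did not overlap for 6 members, of which *Rpl39l* and *Rpl17* were higher after hyperoxia and *Rps20*, *Rpl5*, *Rplp2* and *Rpl7l1* lower. Over all genes, 10.8% did not overlap with hyperoxia higher and 6.42% with hyperoxia lower, so the members' shares of 2.41% and 4.82% did not exceed the background.

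*Rplp2*, the acidic P stalk protein whose start window is shown above, had levels of 10.9, 9.17 and 9.45 CPM in the 3 hyperoxia-exposed females and 12.7, 12.98 and 14.0 in the 3 room air females. Every exposed female was lower, and the log2 fold change was -0.42 (SE 0.16, adjusted p = 0.354, edgeR). *Rps20*, in the head of the small subunit, stood at 23.1, 17.5 and 20.9 CPM after hyperoxia and 25.9, 32.8 and 23.8 in room air (log2 fold change -0.43). *Rpl5*, which carries the 5S RNA into the ribosome with *Rpl11*, stood at 12.2 ± 0.489 against 15.0 ± 1.49 CPM (SD, n = 3 each, log2 fold change -0.30), while *Rpl11* stood at 13.7 ± 1.09 against 13.3 ± 0.859. The abundant members *Rps2* (-0.49), *Rps15* (-0.47) and *Rpl7* (-0.46) had the largest negative changes, and their groups overlapped.

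The 2 members that stood higher in exposed females were of low level. *Rpl17* had 9.45, 9.37 and 9.02 CPM in the exposed females and 6.50, 5.98 and 7.43 in the room air females (log2 fold change 0.49, SE 0.19, adjusted p = 0.357, edgeR). It shares 78.7% of its words with other genes, among them 50 pseudogenes, and background made up 20.5% of its counts. *Rpl39l*, a paralog of the exit tunnel protein *Rpl39* known from male germ cells, had 2.71, 2.66 and 3.70 CPM against 2.03, 1.65 and 1.74 (log2 fold change 0.74, SE 0.30, adjusted p = 0.358, edgeR). None of its words was shared, and 40.3% of its counts were background. Among the members with a mean of at least 10 CPM, *Rpl11* (0.04), *Rps26* (0.02) and *Rpl34* (-0.02) stood at the upper end.

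The female median depended on single lungs: it was -0.07, with 1 member instead of 9 lower without adjustment (1.95% of all genes), when room air female 5 was left out, and -0.30 with 32 lower (10.4% of all genes) when room air female 6 was left out. When the receptor share entered the model it was 0.05, with 57 of 83 members above 0.

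**Figure D4:**
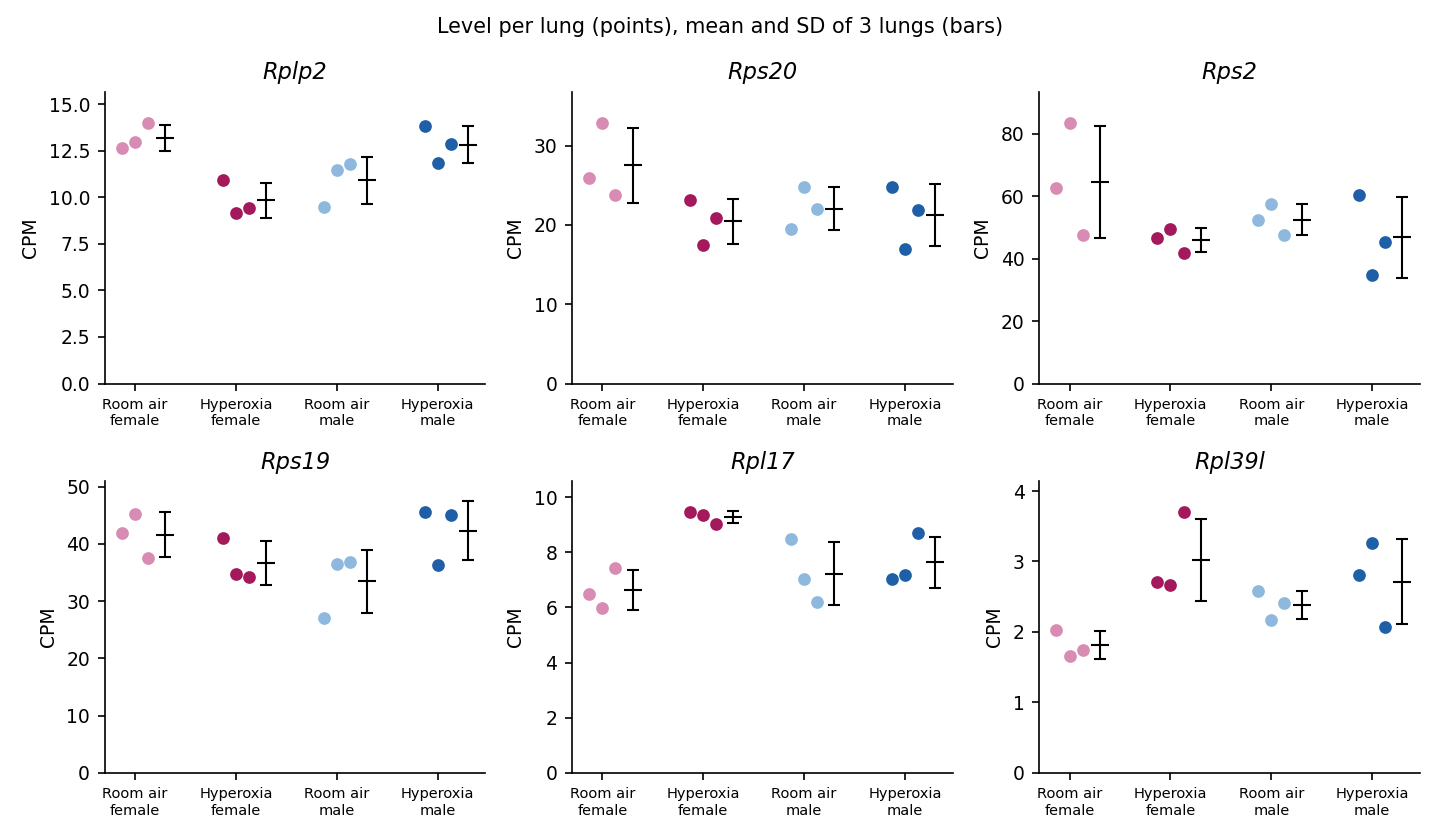
Level (vertical axes, CPM) of 6 members in each lung, with 1 point per lung and the mean ± SD of 3 lungs beside each group. *Rplp2* lies at 9.17 to 10.9 in exposed females and 12.7 to 14.0 in room air females, while *Rps2* overlaps between exposures in both sexes.

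In the males, 0 members were higher and 0 lower by edgeR (smallest adjusted p 1.00) and 0 by DESeq2, and 0.0% of all genes passed in either direction. Without adjustment, *Rps19* was higher and *Rpl3l* lower, 1 member each against 0.899% and 1.8% of all genes, and DESeq2 had 0 of each (0.694% and 1.49%). The median log2 fold change was -0.01, with 39 of 83 above 0, equal to the -0.01 of all genes. When the receptor share entered the model the members' median was -0.098, with 24 of 83 above 0. It was -0.15 without hyperoxia male 1 and 0.097, with 57 of 83 above 0, without hyperoxia male 2. *Rps19* stood at 45.5, 36.4 and 45.0 CPM after hyperoxia and at 26.98, 36.5 and 36.8 in room air (log2 fold change 0.34, SE 0.16, adjusted p = 1.00, edgeR), and the groups overlapped. Among well-counted members *Rpl23* (0.26) and *Rplp2* (0.24) followed, and *Rpl27a* (-0.27), *Rps27l* (-0.19) and *Rpl7a* (-0.19) had the largest negative changes. Groups did not overlap for *Rplp2* and *Rpl30*, which were higher after hyperoxia, and for *Rpl3l*, which was lower, against 2.73% and 3.89% of all genes.

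*Rpl3l* encodes the paralog that replaces *Rpl3* in skeletal and cardiac muscle. It stood at 7.97, 8.60 and 7.61 CPM in the exposed males and at 12.6, 8.70 and 10.5 in the room air males (log2 fold change -0.40). The highest value was that of room air male 1, in which 12 skeletal muscle markers summed to 2416 CPM, whereas the other 11 lungs had 155 to 253. Cardiac muscle markers summed to 196 to 227 CPM over 8 genes in exposed males and 209 to 359 in room air males. The part of muscle RNA in the *Rpl3l* values was not tested. Without room air male 1, 0 members had an unadjusted p under 0.05 in either direction in males (edgeR), against 0.87% and 0.985% of all genes. A count of 0 of 83 lies near those shares, and that fit has 1 lung fewer. *Rpl3* itself stood at 29.9 ± 6.43 CPM after hyperoxia and 31.3 ± 1.51 in room air (SD, n = 3 each).

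Whether the sexes differed in their response was tested as the female minus the male effect. No member passed (0 higher, 0 lower, smallest adjusted p 0.578, edgeR), as 0.0% of all genes did in either direction, and DESeq2 called 0. Without adjustment 0 members had a higher and 4 a lower effect in females (*Rplp2*, *Rps19*, *Rps28*, *Rpl7l1*), against 6.06% and 2.4% of all genes, and DESeq2 had 0 and 3 (3.48% and 4.01%). The median difference of the members was -0.22 and that of all genes 0.12. *Rplp2* was the only member that did not overlap between exposures in both sexes, with the exposed lungs lower in females and higher in males (0.122% of all genes had this pattern, and 1.09% did not overlap in both sexes in any direction). The male levels were 13.8, 11.9 and 12.8 CPM after hyperoxia and 9.46, 11.5 and 11.8 in room air. The difference between the effects was -0.66 (SE 0.22, adjusted p = 0.578, edgeR, unadjusted p = 0.0062). It passed in the fits with 1, 2 or 3 RUVr factors, which remove unwanted variation estimated from residuals (adjusted p = 0.0161, 0.0102 and 0.00822, edgeR), in which 1.27% to 1.39% of all genes passed with a lower effect in females, and in none of the 12 fits without 1 lung, where it lay between -0.75 and -0.57 with an adjusted p between 0.147 and 0.940 (edgeR). Over all alternatives the adjusted p ran from 0.00822 to 1.00 (edgeR or DESeq2). When the receptor share entered the model the members' median difference was 0.16, and with the estimated background subtracted it was -0.04.

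Between females and males over both exposures, *Rpl36a* was higher in females and was the only one of the 83 members to pass, with 0 lower, against 1.01% of all genes higher and 0.207% lower. Without adjustment 2 members were higher (*Rpl36a*, *Rpl10*) and 0 lower, against 4.05% and 2.83%. *Rpl36a*, of the large subunit, lies on the X chromosome (134585654 to 134588062, mm10). Its level had a minimum, median and maximum of 4.99, 5.62 and 6.61 CPM in the 6 females and of 3.18, 3.72 and 3.91 in the 6 males, so that the sexes did not overlap (0.886% of all genes did not overlap with females higher and 0.312% with females lower, against 1 and 0 of the 83 members). The log2 fold change was 0.64 (SE 0.16, adjusted p = 0.0363, edgeR). Its autosomal paralog *Rpl36al* differed by 0.07. The other X-linked members were *Rpl10*, required for joining of the subunits (0.48, adjusted p = 0.106, edgeR), *Rpl39* (0.24) and *Rps4x* (0.12), and all of these overlapped between the sexes. Of the autosomal members with a mean of at least 10 CPM, *Rpl23* was highest (0.27), and *Rpl11* (-0.12), *Rplp2* (-0.06) and *Rps18* (-0.03) were lowest. The median over the 83 members was 0.10, with 65 above 0, and that of all genes -0.03. When the receptor share entered the model the members' median was -0.0044, with 41 of 83 above 0. Without 1 lung it ran from 0.037 to 0.16.

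The X chromosome as a whole stood higher in the female libraries. Of the 464 genes called higher in females, 456 were X-linked, and 99.3% of the 1802 X-linked genes tested had a positive change, with a median of 0.75. This included genes that lung should not express: the counts per kilobase on 68 X-linked germline genes, relative to the autosomal receptor genes, were 1.62 to 2.44 in females and 0.716 to 0.977 in males. Background estimated from the receptor genes was 41.3% of the counts of *Rpl36a*, 15.6% of *Rpl10*, 15.4% of *Rpl39* and 4.63% of *Rps4x*. When the X-linked density was subtracted from X-linked genes instead, the log2 fold change of *Rpl36a* was -0.07 (adjusted p = 1.00, edgeR) and that of *Rpl39* -0.03, and with the receptor density subtracted it was 1.22 (adjusted p = 0.0143). With the counts of its named pseudogenes added it was 0.30 (adjusted p = 0.313), and with a filter of 10 counts in every lung 0.63 (adjusted p = 0.087, the range over all alternatives being 0.00176 to 1.00). The call was also lost in 9 of the 12 fits without 1 lung, in which the log2 fold change stayed between 0.58 and 0.69 and the adjusted p between 0.0391 and 0.133. It held without room air female 2, hyperoxia female 2 or hyperoxia male 2. Without hyperoxia male 1, *Rpl10* passed in its place (0.66, adjusted p = 0.0016, edgeR).

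**Figure D5:**
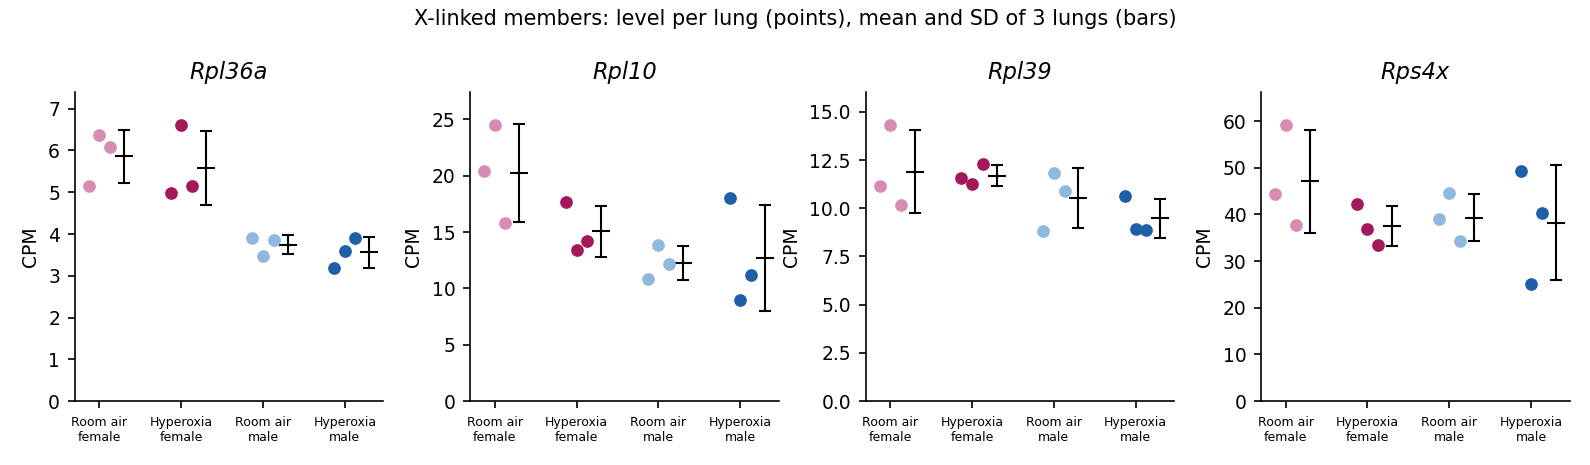
Level (vertical axes, CPM) of the 4 X-linked members in each lung, with 1 point per lung and the mean ± SD of 3 lungs beside each group. *Rpl36a* lies at 4.99 to 6.61 in the 6 females and 3.18 to 3.91 in the 6 males, and the other 3 genes overlap between the sexes.

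Beside *Rpl36a*, no gene of the paralog pairs and none of the ribosomal proteins outside the rule was called in any comparison. Over 12 lungs, *Rps27* stood at 3.62 ± 0.605 CPM after hyperoxia and 2.89 ± 0.692 in room air (log2 fold change 0.32), and *Rps27l* at 10.5 ± 2.18 against 12.7 ± 1.57 (SD, n = 6 each). *Rpl22* changed by -0.21 and *Rpl22l1* by -0.13, *Rpl7* by -0.23 and *Rpl7l1* by -0.07, and *Rpl10* by -0.18 and *Rpl10l* by -0.15. *Rplp0* and *Rplp1* both changed by -0.15 and *Rps6* by -0.15. Of the genes outside the rule, *Rpsa*, which is also a laminin receptor, changed by -0.25, *Rack1*, a scaffold on the small subunit, by -0.22, and *Fau*, made as a fusion with a ubiquitin-like protein, by -0.07.

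Other parts of the translation machinery were read from lists. Over 12 lungs, 0 of 77 mitochondrial ribosomal protein genes tested, 0 of 63 ribosome biogenesis factors, 0 of 20 translation factors with TOP messages, 0 of 22 initiation factors, 0 of 15 RNA polymerase I genes, 0 of 12 snoRNA host genes and 0 of 18 mTOR pathway genes were called by edgeR. Their median log2 fold changes were -0.07, -0.07, -0.19, -0.18, -0.05, -0.04 and -0.09. In females the medians of the TOP translation factors and the initiation factors were -0.38 each, with 8 of 20 and 9 of 22 lower without adjustment (5.28% of all genes), and in males they were 0.04 and -0.0024. Without room air female 5 the female medians were -0.23 and -0.29, with 2 and 1 genes lower without adjustment (1.95% of all genes), and with the receptor share in the model -0.01 and -0.03, with 1 and 3 (2.9%). Between females and males, *Eif2s3x*, *Dkc1* and *Utp14a* were called higher in females (log2 fold changes 0.86, 0.66 and 0.67), and all 3 are X-linked. The 13 members mutated in Diamond-Blackfan anaemia, a failure of red cell production, had a median of -0.06 over 12 lungs.

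Markers of other cell types were read beside these values. Erythroid markers summed to 1325 to 4839 CPM over 8 genes in exposed lungs and 5295 to 8207 in room air lungs, and *Alas2*, *Hba-a2* and *Hbb-bt* were among those called lower (log2 fold changes -1.11, -1.24 and -1.28). Reticulocytes still carry ribosomes and their messages, and the part of red cell RNA in the member values was not tested. Cardiac muscle markers summed to 196 to 236 CPM over 8 genes in exposed lungs and 209 to 359 in room air lungs, with 0 of 8 called and 6 of 8 lower without adjustment (edgeR, 2.52% of all genes). Summed levels of B cell markers (7 genes) were 182 to 233 CPM in exposed and 193 to 306 in room air lungs, those of T cell markers (8 genes) 98.6 to 123 and 103 to 117, of thymocyte markers (8 genes) 93.1 to 137 and 90.5 to 136, of macrophage markers (8 genes) 911 to 1707 and 1020 to 2201, of neutrophil markers (7 genes) 46.9 to 83.2 and 49.6 to 93.1, and of proliferation markers (8 genes) 122 to 172 and 148 to 181. None of the marker genes was at 0 in all lungs.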

How the data were processed

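The authors trimmed the reads (Trim Galore), mapped them to mm10 (STAR) and counted them over genes with featureCounts. The deposited values are these raw counts, not normalised. The strand setting and the treatment of reads that map to several places are not given in the sources used here. The library kit is QIAseq Stranded Total RNA in the methods but NEBNext Ultra II Directional, with rRNA depletion, in the sample labels. The sources name separate animals, so p-values measure the spread between these lungs.

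Counts of 55487 genes (0 columns of values without a sample) were fitted with edgeR 4.0.16 (R 4.3.3, robust quasi-likelihood, upper-quartile normalization, 4 group means, biological coefficient of variation 0.177), with Benjamini-Hochberg adjustment over the 45828 genes kept by filterByExpr. The contrasts were hyperoxia against room air over 12 lungs and in each sex, the female minus male effect, and females against males. CPM use the normalised library sizes, and 3 counts equal 0.179 to 0.342 CPM of the raw totals. The script was tested on simulated data. Exon lengths and shared words came from GENCODE M21, which matched 55227 genes, and start sequences from RefSeq. Tables and figures used Python 3.11.15, pandas 2.3.3 and matplotlib 3.10.9.

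Members named are those called, the 5 largest and 5 smallest changes over 12 lungs and the 3 largest and smallest in each sex and between the sexes among members of at least 10 CPM, the P stalk, 5S, X-linked and paralog genes, *Rps6*, *Rps19*, and the 3 highest and lowest per kilobase. Others were named after their values were seen. The members and lists were chosen with earlier results of these data known. Alternatives were TMM, DESeq2 1.42.0, other filters, 1 to 3 RUVr factors, the receptor share as a covariate, pseudogene counts added, the 6 libraries compared, the replicate block, each lung left out and, chosen after the data were seen, background subtracted in 2 ways and a total without satellite-like genes. The ComBat-seq step that the methods name was not repeated. The methods also name RUVr but give no number of factors, so RUVr is only among the alternatives here. Some items are not reported here.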

Additional observations from a re-analysis of the deposited data

Results flagged for a closer look

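Dixon's test was run on the 6 lungs of each exposure for each member, 166 groups in all, and 8 groups had a lung that stood apart (chance flags about 1 in 20). Among the hyperoxia-exposed lungs, hyperoxia female 5 stood apart low for *Rpl9* (9.28 CPM) and *Rpl28* (7.82 CPM) and high for *Rpl19* (9.80 CPM). Hyperoxia male 2 stood apart low for *Rpl41* (62.0 CPM) and *Rpl29* (27.6 CPM), and hyperoxia male 1 stood apart high for *Rps25* (36.1 CPM). Hyperoxia female 4 stood apart high for *Rpl3l* (10.7 CPM), with skeletal muscle markers summing to 232 CPM in this lung. Among the room air lungs, room air female 5 stood apart high for *Rpl21* (92.9 CPM).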

How the results depend on the processing

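The count of members called stayed at 0 for hyperoxia over 12 lungs, in females and in males under every alternative run. For the female minus male effect it was 1 (*Rplp2*, lower) with 1, 2 or 3 RUVr factors, 1 in each, where 1.27% to 1.39% of all genes were lower. For females against males it was 0 with a filter of 10 counts in every library, 0 with pseudogene counts added and 0 with the X-linked density subtracted, and 0 to 1 without 1 lung. The members' median moved past the spread between lungs in females when the receptor share was a covariate (0.052), and in the female minus male effect with that covariate (0.16), with background subtracted (-0.041) and with the X-linked density subtracted (-0.043). Without 1 lung the medians ran from -0.17 to -0.040 over 12 lungs, from -0.30 to -0.074 in females, from -0.15 to 0.097 in males, from -0.34 to -0.078 for the difference and from 0.037 to 0.16 between the sexes. Members lower without adjustment numbered 3 over 12 lungs and 9 in females, but 21 to 24 and 32 to 34 with RUVr factors (10% to 11% and 15% to 15.6% of all genes), and 0 and 20 with the replicate block (0.312% and 7.14%). For the female minus male effect 4 were lower, but 26 to 29 with RUVr factors (12.8% to 13.6% of all genes) and 1 to 22 without 1 lung (1.01% to 10.4%). Between the sexes 2 were higher in females, but 22 to 26 with RUVr factors (9.5% to 10.7%). The share of member starts with a tract fell to 17.3% with the C exactly there. The cause of these changes was not tested.

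Named members near 0 changed sign. Over 12 lungs, *Rpl11* was 0.0099 with the 10-count filter, 0.00086 with the replicate block and 0.0015 with the X-linked density. *Rpl23* was 0.023 with that filter, 0.0074 with 3 RUVr factors, 0.11 with the covariate, 0.047 with background subtracted and 0.052 with the X-linked density. *Rpl35a* was -0.00509 with TMM, -0.026 with DESeq2 and -0.0019 with no filter, and *Rpl34* was -0.018 with DESeq2. In females, *Rpl7* was 0.041 with the covariate, and *Rpl34* was 0.054 with the filter, 0.10 with the covariate, 0.0084 with only the 6 libraries compared, 0.11 with background subtracted and 0.11 with the X-linked density. *Rps26* was -0.022 with TMM, -0.086 with DESeq2, -0.024 with no filter, -0.20 with pseudogene counts and -0.10 with the block, and *Rpl11* was -0.00478 with TMM, -0.064 with DESeq2 and -0.0076 with no filter. Between the sexes, *Rps18* was 0.012 with DESeq2 and 0.050 with pseudogene counts, and with the X-linked density *Rpl39* was -0.031 and *Rpl36a* -0.073. Without 1 lung the log2 fold changes over 12 lungs were -0.055 to 0.0093 for *Rpl11*, -0.097 to 0.092 for *Rpl23*, -0.068 to 0.067 for *Rpl35a* and -0.011 to 0.11 for *Rpl34*. In females they were -0.0202 to 0.0905 for *Rpl11*, -0.10 to 0.14 for *Rpl34* and -0.14 to 0.21 for *Rps26*, in males -0.32 to 0.019 for *Rps27l*, and between the sexes -0.095 to 0.045 for *Rps18*. RUVr with any number of factors left 0 members called for hyperoxia.

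Animal numbers shared by lungs of a sex do not name a litter or batch, and the deviations of same-numbered lungs had correlations of 0.06 and -0.17 in females and -0.30 in males. With the number as a replicate block, 0 members were called over 12 lungs (median -0.10) and in females (median -0.30), while all genes went from 19 to 2 calls and from 1 to 434. Counts of 8 to 3284 per member and lung limited the low members most. Limits of 3 counts and binomial intervals cover counting error only.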
